A study of Mus musculus with 12 samples.

Results

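The monocyte markers are 6 genes that are read as signs of monocytes in brain tissue: Ccr2, Ly6c2, Chil3, Plac8, Fn1 and F10. They were taken as the rows with exactly these names in tables of 23845 genes. A further entry of the list, "Vim-dependent", matched no row and is no gene name, so 6 of 7 entries were found. All 6 passed the filter on low counts and were among the 15295 genes tested. RNA was sequenced from Percoll gradient microglia of C57BL6/J mice aged 3 to 4 months, with 1 animal per library and 3 libraries in each of 4 groups. The groups were untreated wild type (WT), wild type injected with lipopolysaccharide (LPS, a bacterial cell wall component that sets off inflammation) 24 h before collection (WT-LPS), untreated mice labelled CPEB1 knockout (CPEB1-KO) and knockout mice injected in the same way (CPEB1-KO-LPS). The sources used here do not give the knockout allele, the LPS dose or any sham injection. A Percoll gradient separates cells by density, so it can carry blood cells of similar density along with microglia.

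Classical monocytes leave the bone marrow for the blood through the chemokine receptor CCR2, which binds the ligands CCL2, CCL7 and CCL12. In the mouse they carry much LY6C on their surface, whereas patrolling, non-classical monocytes carry little and depend on the transcription factor NR4A1. Resting microglia carry little CCR2 or LY6C. No member belongs to monocytes alone: Chil3 and Plac8 are also made by neutrophils, Fn1 by fibroblasts, endothelial cells and macrophages, and F10 chiefly by the liver. In bulk RNA, fewer cells of a type and less of a transcript per cell cannot be told apart.

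LY6C is encoded by a pair of nearly identical genes on chromosome 15, and the first 300 bases of their coding sequences are shown because they limit how far reads can be given to Ly6c2. Ly6c2 lies at chr15:75108161-75112066 and Ly6c1 at chr15:75044018-75048920, both on the minus strand (mm10, RefSeq positions, strand from GENCODE M21). The capitals mark the bases at which the coding sequences differ.
Ly6c2: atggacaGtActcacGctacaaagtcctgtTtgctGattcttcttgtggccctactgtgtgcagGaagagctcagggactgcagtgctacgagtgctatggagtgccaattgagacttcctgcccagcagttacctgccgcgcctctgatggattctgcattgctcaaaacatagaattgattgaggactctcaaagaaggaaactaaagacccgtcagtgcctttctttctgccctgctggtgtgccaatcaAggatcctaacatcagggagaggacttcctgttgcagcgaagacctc
Ly6c1: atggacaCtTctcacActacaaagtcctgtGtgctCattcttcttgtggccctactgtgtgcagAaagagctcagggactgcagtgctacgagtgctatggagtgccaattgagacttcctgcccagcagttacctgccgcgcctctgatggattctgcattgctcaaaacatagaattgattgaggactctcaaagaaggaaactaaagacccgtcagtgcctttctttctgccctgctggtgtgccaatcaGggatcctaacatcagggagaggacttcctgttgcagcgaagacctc
The shown bases hold 7 differences. Whole, both coding sequences have 396 bases, of which 9 differ, so that 97.7% are identical. The longest stretch shared without a difference is 188 bases. Of the 100-base windows of the Ly6c2 transcript, 15.8% also occur in Ly6c1, and of the 50-base windows 32.6%. The expected counts of this pair were fractional in 4 of 12 libraries, and in each of these 4 the Ly6c1 and Ly6c2 counts add up to a whole number. Values for Ly6c2 alone are therefore uncertain, and each test of Ly6c2 was repeated on the summed counts of the pair. Chil3 also has a close relative, Chil4, which had 0 counts in all 12 libraries.

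The promoter windows of Ly6c2 and Chil3 are shown because both genes rose with LPS in wild type and these windows held a motif match. The upstream window of Plac8 and that of F10 held none. The sequences are RefSeq promoter windows of the GRCm38.p6 build, on the minus strand, and the capitals mark motif matches. Each window runs from 250 bases before to 50 after its own start site, which can differ from the gene boundary given here. The Ly6c2 window reaches further into the gene than 50 bases, and the Ccr2 window (chr9:124101933-124102232) lies wholly within the gene span. The Ly6c2 window is chr15:75111922-75112221 and the Chil3 window is chr3:106167515-106167814.
Ly6c2 promoter: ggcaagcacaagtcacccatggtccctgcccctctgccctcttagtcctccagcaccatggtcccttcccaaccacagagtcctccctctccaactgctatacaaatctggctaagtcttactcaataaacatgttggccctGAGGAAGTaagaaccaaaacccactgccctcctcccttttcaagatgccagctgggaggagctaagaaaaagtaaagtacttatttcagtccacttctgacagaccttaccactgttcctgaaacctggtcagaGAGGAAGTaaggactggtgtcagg
Chil3 promoter: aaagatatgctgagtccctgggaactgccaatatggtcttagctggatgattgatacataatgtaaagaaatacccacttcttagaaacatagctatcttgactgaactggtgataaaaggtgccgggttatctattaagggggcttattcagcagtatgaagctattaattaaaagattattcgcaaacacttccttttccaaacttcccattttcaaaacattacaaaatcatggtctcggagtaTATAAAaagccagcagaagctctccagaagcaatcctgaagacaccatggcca
Both strands were searched for GAGGAAGT (bound by PU.1, a regulator of myeloid genes), TTGCNNAA (C/EBP), the NF-kB consensus and TATAAA (bound by the basal factor TBP). The other two motifs searched were that of STAT6, in which TTC and GAA stand 4 bases apart, and the interferon-stimulated response element, in which GAAA is repeated after a gap of 2 bases. GAGGAAGT occurred at 2 places in Ly6c2, and 3.2% of the 32851 windows in the RefSeq table hold it. Chil3 held TATAAA from position -3, so that the match runs across the start site, and 13.6% of windows hold TATAAA at any place. Ly6c1 has a pair of windows, of which the upstream one held no GAGGAAGT and the downstream one held 1 match. None of the 6 motifs matched in the windows of Ccr2 and F10 or in the upstream window of Plac8, whereas the downstream window of Plac8 (chr5:100563047-100563346) held 1 match each for C/EBP and STAT6. These are matches of letters, and no binding was measured.

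The libraries held between 5.02 and 13.5 M expected counts (M is 1e+06 counts). Cpeb1, the gene named in the knockout labels, was detected in every library, at 15.5 to 43.3 TPM (transcripts per 1e+06 transcripts) in WT and 17.6 to 26.4 TPM in CPEB1-KO, and the groups overlapped. Its log2 fold change was -0.58 ± 0.31 (SE; edgeR quasi-likelihood test, FDR = 0.334), so these gene-level values do not separate the genotypes, and CPEB1-KO below means the libraries labelled so. All 12 microglia markers checked were present in each group, and their summed level was 6047 to 6904 TPM in WT and 2824 to 4453 TPM in CPEB1-KO, against 997 to 4567 TPM in WT-LPS and 725 to 2891 TPM in CPEB1-KO-LPS. Beside them the libraries held neutrophil markers, whose sum ran from 523 to 4049 TPM over the 12 libraries, and erythroid markers. They also held neuron markers, which summed to 947 to 2602 TPM in WT and 1333 to 4269 in WT-LPS. The neuron sums were 2581 to 3720 TPM in CPEB1-KO and 1646 to 3168 in CPEB1-KO-LPS. In WT-LPS replicate 1 the neuron sum was 4269 TPM, against 997 TPM for the microglia markers. Astrocyte markers summed to 388 to 764 TPM in WT, 1115 to 1833 in WT-LPS, 390 to 747 in CPEB1-KO and 581 to 861 in CPEB1-KO-LPS. Haemoglobin genes took 1.04% to 1.63% of the expected counts of WT libraries and 0.576% to 0.847% of those of CPEB1-KO libraries. Among LPS libraries the share was 0.129% to 0.242%, apart from CPEB1-KO-LPS replicate 3 with 1.5%, which in this respect lay with the untreated libraries.

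In wild type, 4 of the 6 monocyte markers rose 24 h after LPS: Ly6c2, Chil3, Plac8 and F10. None fell, and the values of Ccr2 and Fn1 did not pass the test. Over all genes tested, 12.4% were called higher in this comparison (edgeR quasi-likelihood test, FDR under 0.05), and 14.9% lower. The same 4 members had no overlap of TPM between the groups, as did 27.4% of all genes in the same direction. The median log2 fold change of the 6 members was 2.68, against -0.03 for all genes. In the knockout, Ccr2 fell and F10 rose with LPS, and the other 4 members did not pass. There, 4.1% of all genes were called higher and 2.12% lower, and the medians were 1.2 for the members and 0.00 for all genes. TPM did not overlap for F10 (higher, as for 16.2% of all genes) and Ccr2 (lower, as for 15% of all genes).

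**Figure D1:**
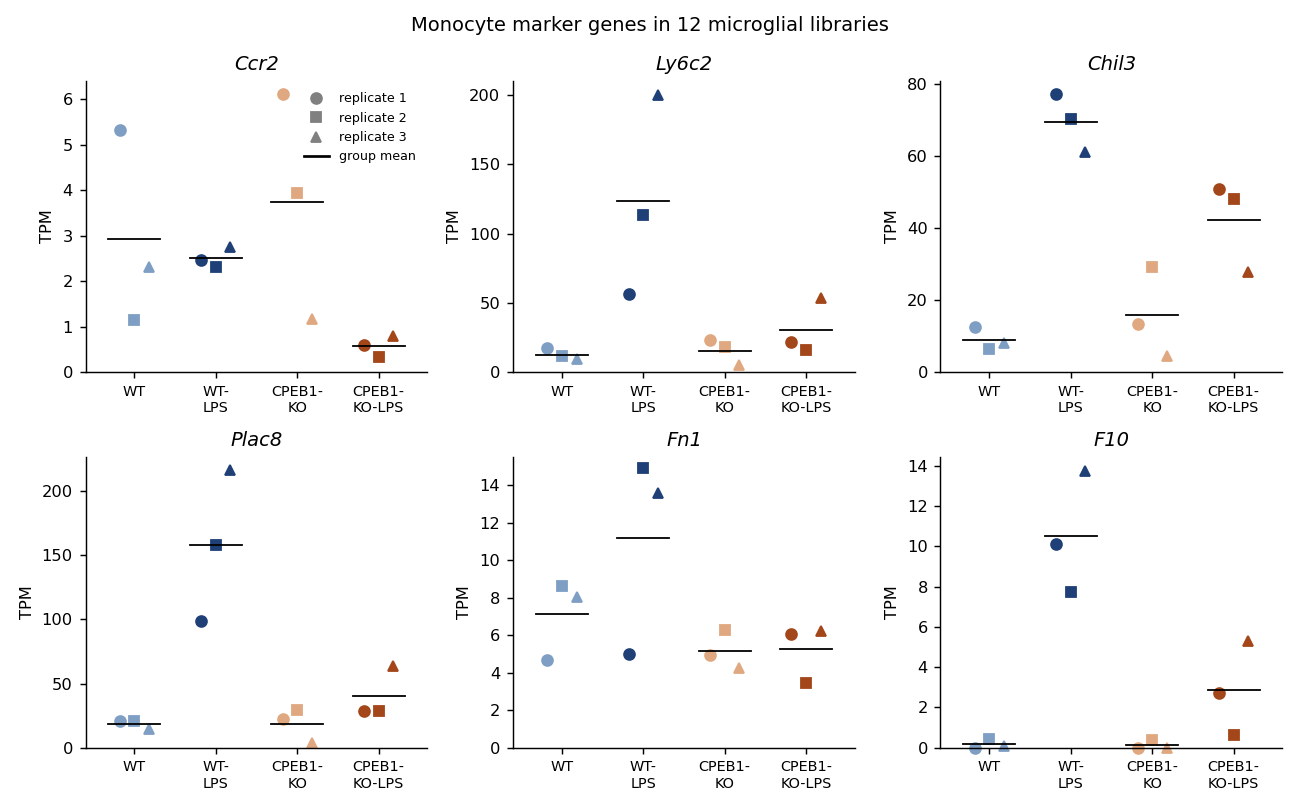
TPM of the 6 monocyte marker genes (y axis, from 0) in the 12 libraries, by group (x axis). Each symbol is 1 library, its shape gives the replicate number and the bar is the mean of 3 libraries. Ly6c2, Chil3, Plac8 and F10 lay higher in each WT-LPS library than in any WT library, whereas the lowest 3 values of Ccr2 were those of CPEB1-KO-LPS.

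Ccr2 (chr9:124101918-124109140, plus strand), the receptor that monocytes need to leave the marrow, was low throughout. Its level was 5.33, 1.15 and 2.31 TPM in WT replicates 1 to 3, and 2.47, 2.30 and 2.74 TPM in WT-LPS. It was 6.11, 3.94 and 1.17 TPM in CPEB1-KO, and 0.59, 0.32 and 0.80 TPM in CPEB1-KO-LPS. The WT-LPS values lay inside the range of WT, while each CPEB1-KO-LPS value was below each value of the other 9 libraries. By mean, CPEB1-KO (3.74 ± 2.48 TPM, SD, n = 3) came before WT (2.93 ± 2.16), WT-LPS (2.50 ± 0.22) and CPEB1-KO-LPS (0.57 ± 0.24), and the first 3 overlapped. The counts behind these levels were 161 in WT, 172 in WT-LPS, 267 in CPEB1-KO and 41 in CPEB1-KO-LPS, summed over 3 libraries.

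In the knockout Ccr2 fell with LPS by 2.69 ± 0.62 (SE) on the log2 scale, with an FDR of 0.0214 in edgeR's test. In wild type its log2 fold change was -0.53 ± 0.56 (FDR = 0.508). The difference between these 2 responses was -2.16 ± 0.83 on the log2 scale and did not pass (edgeR interaction test, unadjusted p = 0.0213, FDR = 0.258), so the fall was not shown to differ between genotypes. The call in the knockout was lost without CPEB1-KO replicate 1 (log2 fold change -2.09, FDR = 0.0823) or replicate 2 (-2.67, FDR = 0.0655), and without CPEB1-KO-LPS replicate 1 (-2.63, FDR = 0.0739) or replicate 2 (-2.35, FDR = 0.0885). It was also lost in a fit of the 2 groups alone (-2.69, FDR = 0.0504) and in limma's test on log2(TPM + 1), where the difference was -1.45 (FDR = 0.0634).

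The CCR2 ligands went the other way. Ccl2, Ccl7 and Ccl12, all 3 of the list, rose in both genotypes, with median log2 fold changes of 3.55 in wild type and 5.16 in the knockout. Of all genes, 12.4% were called higher in wild type and 4.1% in the knockout. Ccl2, the main attractant of monocytes, was at 12.1, 10.2 and 4.73 TPM in WT and at 134.5, 191.7 and 204.3 TPM in WT-LPS. It was at 9.57, 5.09 and 7.39 TPM in CPEB1-KO and at 159.3, 189.96 and 369.3 TPM in CPEB1-KO-LPS, so that the groups did not overlap in either genotype. Its log2 fold change was 3.92 ± 0.48 in wild type (edgeR FDR = 0.000216) and 5.16 ± 0.49 in the knockout (FDR = 7.01e-05). Ccl7 reached 30.3 to 86.2 TPM in CPEB1-KO-LPS, above the 12.1 to 15.8 TPM of WT-LPS, and this genotype difference of 2.03 ± 0.46 on the log2 scale had an edgeR FDR of 0.361. CPEB1-KO-LPS thus held the lowest Ccr2 values together with Ccl7 values above each WT-LPS library, while Ccl2 and Ccl12 overlapped between these groups.

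Among chemokine receptors encoded beside Ccr2, Ccrl2 rose in both genotypes, by 3.40 ± 0.84 on the log2 scale in wild type (edgeR FDR = 0.0101) and by 3.26 ± 0.81 in the knockout (FDR = 0.0322). Ccr1, a receptor for inflammatory chemokines, rose in the knockout by 1.76 ± 0.46 (edgeR FDR = 0.0394), against 1.24 ± 0.46 in wild type (FDR = 0.0593). Cx3cr1, the receptor that marks microglia and non-classical monocytes, dropped by 1.98 ± 0.57 in wild type (edgeR FDR = 0.0206), and its log2 fold change in the knockout was -0.36 ± 0.55 (FDR = 0.766).

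Ly6c2, 1 of the genes of the LY6C antigen of classical monocytes, was at 17.0, 11.6 and 9.07 TPM in WT and at 56.6, 113.8 and 200.5 TPM in WT-LPS. It was at 23.0, 17.9 and 4.80 TPM in CPEB1-KO and at 21.9, 15.6 and 53.3 TPM in CPEB1-KO-LPS. The wild-type groups did not overlap, and the spread within WT-LPS was wide. The knockout groups overlapped, with only CPEB1-KO-LPS replicate 3 above each CPEB1-KO library. WT-LPS (mean 123.6 ± 72.5 TPM, SD, n = 3) led CPEB1-KO-LPS (30.3 ± 20.2), CPEB1-KO (15.2 ± 9.39) and WT (12.6 ± 4.06). WT-LPS did not overlap with the other 3 groups, which overlapped with each other.

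The log2 fold change of Ly6c2 with LPS was 2.93 ± 0.66 in wild type (edgeR FDR = 0.00624) and 1.13 ± 0.62 in the knockout (FDR = 0.336). The knockout value was 0.23 without CPEB1-KO-LPS replicate 3 (edgeR FDR = 0.899) and 0.70 without CPEB1-KO replicate 3 (FDR = 0.694). The difference between the responses was -1.80 ± 0.89 and did not pass (edgeR interaction FDR = 0.346; -2.18 with the Ly6c1 counts added, FDR = 0.195). Its paralog Ly6c1, which brain endothelial cells also make in quantity, was at 22.0, 15.8 and 9.21 TPM in WT and at 53.3, 40.8 and 94.6 TPM in WT-LPS. Ly6c1 was at 20.02, 34.3 and 39.2 TPM in CPEB1-KO and at 16.6, 15.1 and 23.1 TPM in CPEB1-KO-LPS. Ly6c2 held 10.2% of the pair's counts in CPEB1-KO replicate 3 and 72.2% in WT-LPS replicate 2, the extremes of the 12 libraries. With the counts of the pair summed, an alternative chosen after the data were seen, the log2 fold change was 2.33 in wild type (edgeR FDR = 0.0029) and 0.15 in the knockout (FDR = 0.88). The 8 endothelial markers, Ly6c1 among them, summed to 33.0 to 50.5 TPM in WT, 91.3 to 237.9 in WT-LPS, 46.3 to 78.5 in CPEB1-KO and 44.0 to 55.7 in CPEB1-KO-LPS. WT-LPS replicate 3 had the highest sum of endothelial markers and the highest Ly6c1 and Ly6c2, and the part of endothelial RNA in the Ly6c values was not tested.

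Among the other Ly6 genes, 7 of 8 had a row and were tested. Ly6i, Ly6a and Ly6c1 rose in wild type (12.4% of all genes), and Ly6i alone in the knockout (4.1% of all genes). Ly6i had a log2 fold change of 4.81 ± 0.80 in wild type (edgeR FDR = 0.0013) and 6.12 ± 0.85 in the knockout (FDR = 0.00084). Ly6a, which encodes the stem cell antigen Sca-1, rose by 1.81 ± 0.31 in wild type (FDR = 0.00149), against 0.38 ± 0.29 in the knockout (FDR = 0.512).

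Chil3 (chr3:106147554-106167564, minus strand) encodes Ym1, a secreted chitinase-like protein without enzyme activity. It was at 12.4, 6.36 and 8.04 TPM in WT and at 77.3, 70.4 and 61.1 TPM in WT-LPS. It was at 13.5, 29.2 and 4.50 TPM in CPEB1-KO and at 50.8, 48.2 and 27.8 TPM in CPEB1-KO-LPS. The order of the means was WT-LPS (69.6 ± 8.13 TPM, SD, n = 3), CPEB1-KO-LPS (42.3 ± 12.6), CPEB1-KO (15.7 ± 12.5) and WT (8.93 ± 3.11). WT-LPS stood apart from the rest, whereas CPEB1-KO-LPS overlapped with CPEB1-KO through CPEB1-KO replicate 2. The log2 fold change with LPS was 2.63 ± 0.48 in wild type (edgeR FDR = 0.00208) and 1.44 ± 0.45 in the knockout, where it did not pass (FDR = 0.0762). DESeq2 called the knockout difference (FDR = 0.0229), as did edgeR without CPEB1-KO replicate 2 (log2 fold change 2.21, FDR = 0.0148) and with the replicate number as a block (1.61, FDR = 0.0417).

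Chil1, another chitinase-like gene, rose in both genotypes, by 3.27 ± 0.48 on the log2 scale in wild type (edgeR FDR = 0.000674) and by 3.94 ± 0.48 in the knockout (FDR = 0.000319). Of the alternative activation genes, a macrophage program in which Chil3 is often counted, 4 of 7 could be tested. Arg1, which breaks down arginine, and Il4ra, the interleukin-4 receptor, rose in both genotypes, and Mrc1, the mannose receptor, fell in wild type. Arg1 lay between 0 and 0.59 TPM in the 6 untreated libraries and between 6.87 and 27.5 TPM in the 6 LPS libraries.

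Plac8 (chr5:100551589-100572253, minus strand), a small cysteine-rich protein abundant in monocytes and granulocytes, was at 20.7, 20.5 and 14.3 TPM in WT and at 98.9, 158.4 and 216.2 TPM in WT-LPS. It was at 22.6, 29.2 and 3.31 TPM in CPEB1-KO and at 28.3, 28.4 and 63.9 TPM in CPEB1-KO-LPS. By mean, WT-LPS (157.8 ± 58.6 TPM, SD, n = 3) was followed by CPEB1-KO-LPS (40.2 ± 20.5), WT (18.5 ± 3.66) and CPEB1-KO (18.4 ± 13.5). As with Ly6c2, WT-LPS replicate 3 was the highest library, CPEB1-KO replicate 3 the lowest and CPEB1-KO-LPS replicate 3 the highest of its group. The log2 fold change with LPS was 2.72 ± 0.62 in wild type (edgeR FDR = 0.00689) and 1.27 ± 0.60 in the knockout (FDR = 0.253). The knockout value was 0.56 without CPEB1-KO-LPS replicate 3 (edgeR FDR = 0.692) and 0.77 without CPEB1-KO replicate 3 (FDR = 0.546).

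CPEB1-KO replicate 3, the library with the lowest Ly6c2, Chil3 and Plac8, also had the lowest sum of neutrophil markers, at 523 TPM, against 2497 and 2934 TPM in the other CPEB1-KO libraries. Between groups the neutrophil sums overlapped: 1111 to 2738 TPM in WT, 1487 to 3176 in WT-LPS, 523 to 2934 in CPEB1-KO and 1306 to 4049 in CPEB1-KO-LPS. Of the 10 neutrophil markers tested, edgeR called 0 higher at an FDR under 0.05 in either LPS comparison, and 0 higher at an unadjusted p under 0.05. In wild type 2 were lower at an unadjusted p under 0.05 (6229 of 15295 genes in either direction). The TPM of 3 lay wholly higher there (27.4% of all genes). In the LPS average 2 were higher and 2 lower at an unadjusted p under 0.05 (5900 of 15295 genes in either direction). Of these, 1, Ltf, was called lower by edgeR at an FDR under 0.05 (12.5% of all genes). S100a8 and S100a9 weigh most in the sums, with means of 1442.4 and 657.6 TPM in WT-LPS. In the 2 groups that received LPS, replicate 3 had the lowest neutrophil sum and the highest Plac8, Ly6c2 and F10. The part of neutrophil RNA in the Chil3 and Plac8 values was not tested beyond these sums.

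Fn1 (chr1:71585473-71653280, minus strand) encodes fibronectin, a matrix glycoprotein that monocyte-derived macrophages secrete. It was the steadiest member, at 4.70, 8.65 and 8.04 TPM in WT and at 5, 14.95 and 13.6 TPM in WT-LPS. It was at 4.94, 6.28 and 4.24 TPM in CPEB1-KO and at 6.09, 3.43 and 6.25 TPM in CPEB1-KO-LPS. All 4 groups overlapped, and the highest value of the 12 libraries was 4.36 times the lowest. The means were 11.2 ± 5.40 TPM in WT-LPS (SD, n = 3), 7.13 ± 2.13 in WT, 5.26 ± 1.58 in CPEB1-KO-LPS and 5.15 ± 1.04 in CPEB1-KO. The log2 fold change with LPS was 0.26 ± 0.43 in wild type (edgeR FDR = 0.675) and 0.10 ± 0.43 in the knockout (FDR = 0.923). The 95% intervals, -0.72 to 1.24 and -0.89 to 1.09 on the log2 scale, bound the changes that these libraries could not tell from none. Of the 5 integrin chains that bind fibronectin, Itga5 rose in both genotypes, by 2.73 ± 0.40 in wild type (edgeR FDR = 0.000638) and by 2.69 ± 0.40 in the knockout (FDR = 0.00126), and the other 4 did not pass in either.

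F10 (chr8:13037308-13056676, plus strand) encodes coagulation factor X, the protease that turns prothrombin into thrombin. It was close to absent without LPS, at 0, 0.43 and 0.11 TPM in WT and at 0, 0.39 and 0 TPM in CPEB1-KO. It was at 10.1, 7.73 and 13.8 TPM in WT-LPS and at 2.72, 0.63 and 5.31 TPM in CPEB1-KO-LPS. Each LPS library was above each untreated library, and each WT-LPS library was above each CPEB1-KO-LPS library. The means were 10.5 ± 3.04 TPM in WT-LPS (SD, n = 3), 2.89 ± 2.34 in CPEB1-KO-LPS, 0.18 ± 0.22 in WT and 0.13 ± 0.23 in CPEB1-KO, and the latter pair overlapped.

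The counts of F10 behind this were 5 in WT, 525 in WT-LPS, 8 in CPEB1-KO and 147 in CPEB1-KO-LPS. After scaling for library size this is a ratio of 59.4 in wild type (exact 95% interval 25.3 to 183.8) and of 17.99 in the knockout (8.89 to 42.5), where the intervals cover counting error only. In edgeR the FDR was 0.00278 in wild type (log2 fold change 5.73 ± 1.10) and 0.0243 in the knockout (4.35 ± 1.03). The knockout call was lost without CPEB1-KO replicate 1 (log2 fold change 3.88, FDR = 0.0755), without CPEB1-KO replicate 3 (3.82, FDR = 0.101), without CPEB1-KO-LPS replicate 3 (3.37, FDR = 0.0736) and with the 2 groups fitted alone (4.36, FDR = 0.0652). Without CPEB1-KO replicate 2, which holds all 8 counts of its group, the fitted log2 fold change was 8.56 (FDR = 0.0292). In limma on log2(TPM + 1), which understates changes of low genes, F10 was called with 3.27 in wild type and 1.59 in the knockout (FDR = 0.0289). With 1 library left out, the wild-type value ran from 4.86 to 7.63 and was called each time.

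The partners of factor X in coagulation did not share its direction as a group. Of 10 listed genes 7 were tested, and in wild type 2 rose (12.4% of all genes) and 2 fell (14.9% of all genes). F3, the tissue factor that starts coagulation, rose by 0.95 ± 0.27 on the log2 scale (edgeR FDR = 0.0189) and F2r, a thrombin receptor, by 1.37 ± 0.24 (FDR = 0.00182). F5, the cofactor of factor X, dropped by 1.83 ± 0.51 (FDR = 0.0188) and Thbd, the brake thrombomodulin, dropped by 2.57 ± 0.52 (FDR = 0.00355). In the knockout edgeR called 0 of the 7 at an FDR under 0.05. Of the 7, 2 had an unadjusted p under 0.05, as had 3136 of all 15295 genes tested.

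**Figure D2:**
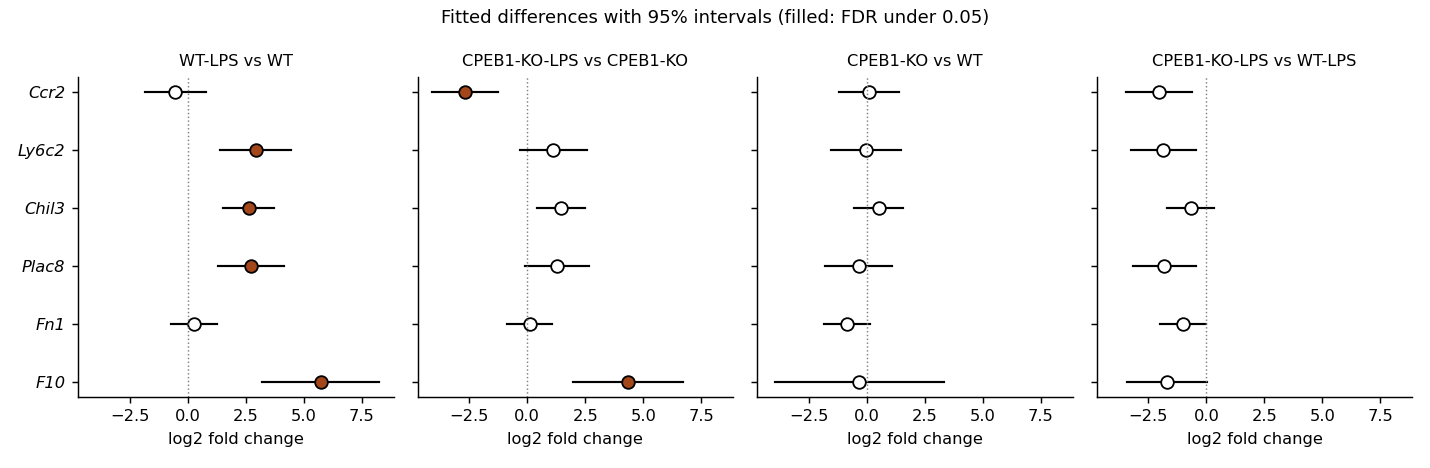
Log2 fold change (x axis) of each member (y axis) in the 2 LPS comparisons and the 2 genotype comparisons, from edgeR, with lines for 95% intervals and filled points for FDR under 0.05. Filled points are 4 of 6 in WT-LPS against WT, 2 of 6 in CPEB1-KO-LPS against CPEB1-KO, and 0 in both genotype comparisons.

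Between genotypes no member passed. Without LPS the FDR ran from 0.299 (Fn1, log2 fold change -0.86 ± 0.43) to 0.973 (Ly6c2, -0.05 ± 0.65). In this comparison edgeR called 0 of 6 members at an FDR under 0.05 and 0 at an unadjusted p under 0.05 (18.6% of all genes), and DESeq2 and limma called 0 each. The background was 0.0327% of all genes called by edgeR. The TPM of all 6 members overlapped between WT and CPEB1-KO.

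After LPS all 6 members had lower fitted values in CPEB1-KO-LPS than in WT-LPS, and edgeR again called 0 at an FDR under 0.05. The log2 fold changes were -2.06 ± 0.62 for Ccr2, -1.85 ± 0.61 for Ly6c2, -0.69 ± 0.43 for Chil3, -1.81 ± 0.58 for Plac8, -1.03 ± 0.43 for Fn1 and -1.71 ± 0.75 for F10. With the Ly6c1 counts added, the Ly6c2 value was -1.78 (edgeR FDR = 0.363). The FDR lay between 0.405 and 0.561, and 5 of the 6, all but Chil3, had an unadjusted p under 0.05, as had 5.09% of all genes in this direction. DESeq2 and limma also called 0 at an FDR under 0.05. The background of edgeR calls was 0.00654%. The TPM of 5 members, all but Fn1, were lower in each CPEB1-KO-LPS library than in any WT-LPS library, as were those of 8.75% of all genes. The members share 6 libraries in this comparison, so they do not count as separate observations of a genotype difference.

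The test of the difference in LPS response between genotypes gave values below 0 for all 6 members, with FDR between 0.258 (Ccr2) and 0.92 (Fn1). EdgeR called 0 at an FDR under 0.05 and 1 at an unadjusted p under 0.05 (5.28% of all genes in this direction). DESeq2 and limma likewise called 0 at an FDR under 0.05. The background of edgeR calls was 0.00654%. Averaged over genotypes in an additive model, which uses the same libraries, LPS gave 5 calls: Ly6c2 (log2 fold change 2.02 ± 0.51; 1.23 and not called with the Ly6c1 counts added, FDR = 0.052), Chil3 (2.02 ± 0.36), Plac8 (1.99 ± 0.47) and F10 (5.001 ± 0.75) higher, and Ccr2 (-1.53 ± 0.51, edgeR FDR = 0.0399) lower. In that model 13.2% of all genes were called higher and 12.5% lower. The Ccr2 average was not called with the replicate number as a block (-1.39, FDR = 0.0774), by limma on log2(TPM + 1) (-0.73, FDR = 0.129, and 0.134 with the TPM minimum) or log2(TPM + 0.1) (-1.14, FDR = 0.123), or without WT replicate 1, WT-LPS replicate 2 or 3, CPEB1-KO replicate 1 or 2 or any 1 of the CPEB1-KO-LPS libraries (FDR from 0.0544 to 0.0955). For the average over treatments, edgeR called 0 members between genotypes at an FDR under 0.05 and 2, Plac8 and Fn1, at an unadjusted p under 0.05, against backgrounds of 0.111% and, for the latter in this direction, 6.51% of genes. DESeq2 and limma called 0 there at an FDR under 0.05.

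Likeness was measured as the root mean square difference of log2 CPM (counts per 1e+06 counts) over the 12 libraries, after each gene was centred on its own mean. Smaller values mean closer centred levels. Genes were not scaled to equal spread, so a gene that varies little can lie near a gene of another pattern. Fn1 had an SD of 0.718, against 1.47 for Ly6c2 and 2.6 for F10. Ly6c2 and Plac8 were nearest to each other among all genes tested other than predicted ones, at 0.368. Chil3 lay at 0.835 from Plac8 and 0.924 from Ly6c2. Ccr2 lay at 1.70 from Ly6c2, 1.90 from Chil3 and 1.80 from Plac8, further than from Fn1, at 1.2, the member of smallest spread. F10, which had counts of 0 in 3 libraries, lay at 1.41 to 3.04 from the other members. The libraries share depth and composition, so these values are a description.

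The ratio of Ly6c2 to Ccr2 TPM shows this split in each library. It was 3.19 to 10.1 in WT and 3.77 to 4.54 in CPEB1-KO, while WT-LPS had 22.9 to 73.2 and CPEB1-KO-LPS had 37.2 to 66.6. The ratio was thus higher in each LPS library than in any untreated library, and within each treatment the genotypes overlapped. In wild type the shift came with higher Ly6c2 and Ccr2 in its former range, and in the knockout with lower Ccr2 and Ly6c2 overlapping its former range. The ratio of Plac8 to Ly6c2 stayed between 0.69 and 1.82 in all 12 libraries, although each of these genes varied by at least 41.8 times between its lowest and highest library.

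**Figure D3:**
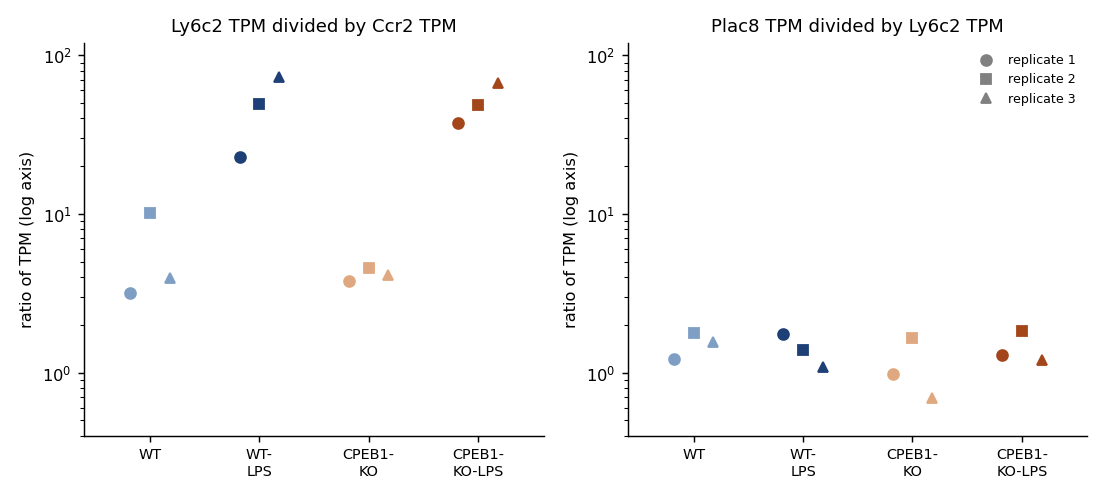
Ratio of Ly6c2 to Ccr2 TPM (left) and of Plac8 to Ly6c2 TPM (right) in each of the 12 libraries, on log axes, with shapes for replicate numbers. The left ratio was 3.19 to 10.1 without LPS and 22.9 to 73.2 with LPS in the 6 wild-type libraries, and the right ratio had no such step.

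Outside the list, the genes nearest to Ccr2 were Rnase6 (0.645), Cd180 (0.669) and Emr4 (0.722). Those nearest to Ly6c2 after Plac8 were Ltb4r1 (0.456), a leukotriene B4 receptor, and Egr1 (0.503). Nearest to Chil3 were Klra2 (0.473), Btbd18 (0.548) and Pglyrp1 (0.552), a peptidoglycan recognition protein of granulocyte granules. After Ly6c2, Plac8 had Slfn1 (0.519) and Ltb4r1 (0.535). Fn1 was nearest to Mob3a (0.259), Tln1 (0.265), the integrin activator talin, and Ceacam1 (0.284). F10 had looser neighbours in AA467197 (0.781), Hp (0.838), which encodes the haemoglobin scavenger haptoglobin, and Mfsd6l (0.905).

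Other genes of classical monocytes were listed too, chosen like the members with earlier results of these data known. Of 15 such genes, 7 rose with LPS in wild type and 6 in the knockout, and none fell in either. Over all genes tested, 12.4% were called higher in wild type and 4.1% in the knockout. Their median log2 fold change was 1.27 in wild type and 0.94 in the knockout. Clec4e, a receptor for damaged cells and mycobacterial lipid, was at 0 to 0.21 TPM in WT and 8.07 to 10.3 TPM in WT-LPS, and at 0.21 to 0.58 TPM in CPEB1-KO and 7 to 8.47 TPM in CPEB1-KO-LPS. Hp was at 5.22 to 9.27 TPM in WT and 101.1 to 138.7 TPM in WT-LPS, and at 3.32 to 15.7 TPM in CPEB1-KO and 29.2 to 93.0 TPM in CPEB1-KO-LPS. Hp, Clec4e, Cd44, the hyaluronan receptor, Ms4a4c and Emilin2 were called in both genotypes. Microglia can also make several of these after LPS, so the list does not count monocytes.

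**Figure D4:**
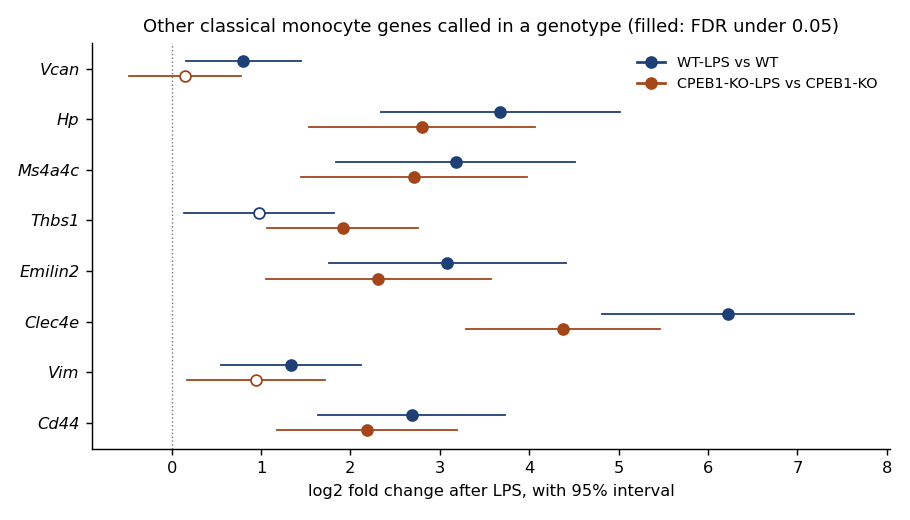
Log2 fold change with LPS (x axis, lines for 95% intervals) of the 8 other classical monocyte genes called in at least 1 genotype (y axis) in wild type (blue) and knockout (orange), from edgeR, with filled points for FDR under 0.05. Of these genes 7 have a filled point in wild type and 6 in the knockout, all above 0.

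Vim, the intermediate filament gene that the unmatched entry appears to refer to, is 1 of these 15. It was at 42.1, 58.6 and 32.7 TPM in WT and at 109.6, 130.6 and 208.3 TPM in WT-LPS. It was at 55.6, 52.8 and 53.9 TPM in CPEB1-KO and at 82.9, 84.7 and 127.1 TPM in CPEB1-KO-LPS. The LPS libraries lay above the untreated ones in both genotypes. The log2 fold change was 1.34 ± 0.34 in wild type (edgeR FDR = 0.0117) and 0.94 ± 0.34 in the knockout, where it did not pass (FDR = 0.123).

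Genes of the classical program that did not pass in either genotype included F13a1, Lyz2, S100a4 and Itga4. Lyz2, the lysozyme gene, was at 129.8 to 300.9 TPM in WT-LPS against 261.6 to 340.6 TPM in WT.

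The 8 non-classical monocyte genes moved differently. In wild type 3 fell, Nr4a1, Ace and Eno3, and 1 rose, Pou2f2, with a median log2 fold change of -0.64. Of all genes, 14.9% were called lower and 12.4% higher there. Nr4a1, the transcription factor of non-classical monocytes, dropped by 1.25 ± 0.30 on the log2 scale (edgeR FDR = 0.00858). Spn, Treml4, Emr4 and Itgal did not pass. Their means in WT and WT-LPS were 2.71 and 3.58 TPM for Spn, 1.63 and 1.45 for Treml4, 1.19 and 0.87 for Emr4, and 2.92 and 7.84 for Itgal. This list does not count monocytes either. In the knockout edgeR called 0 of 8 at an FDR under 0.05 and 0 at an unadjusted p under 0.05, and the log2 fold change of Nr4a1 was -0.07 ± 0.29. Of the monocyte transcription factors, Cebpb rose in both genotypes and Klf4 in wild type. Spi1, which encodes PU.1, was not called in either genotype alone (edgeR FDR = 0.248 in wild type and 0.0672 in the knockout). Its TPM overlapped in wild type but not in the knockout (38.6 to 83.2 in CPEB1-KO, 105.1 to 380.3 in CPEB1-KO-LPS). Averaged over genotypes, LPS gave 3 calls of the 6, all higher: Cebpb, Klf4 and Spi1 (13.2% of all genes).

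**Figure D5:**
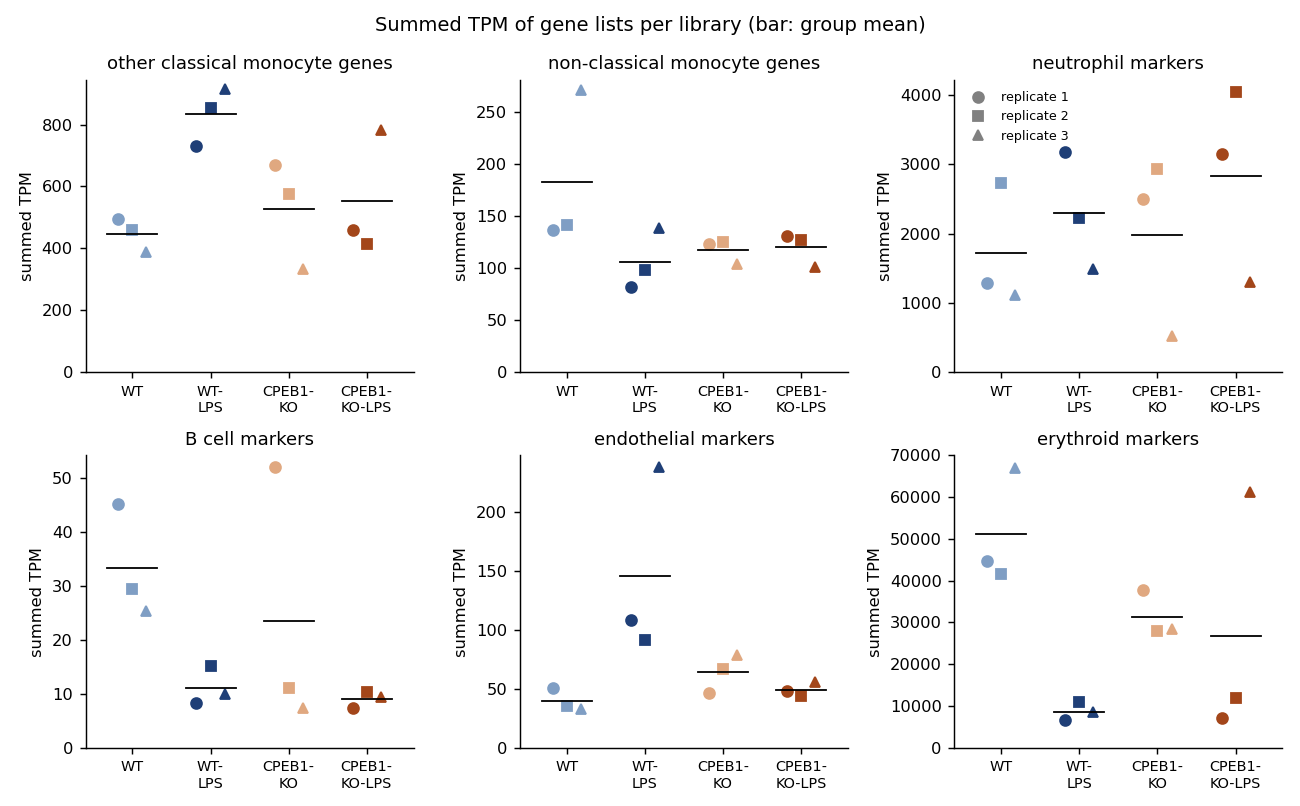
Summed TPM (y axis, from 0) of 6 gene lists in the 12 libraries, by group (x axis), with shapes for replicate numbers and bars for means of 3 libraries. Other classical monocyte genes were higher in each WT-LPS library than in any WT library, neutrophil sums overlapped between groups, and CPEB1-KO-LPS replicate 3 had 61140 TPM of erythroid markers against 7051 and 11850 in replicates 1 and 2.

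The B cell markers summed to 25.3 to 45.2 TPM in WT and 8.25 to 15.3 TPM in WT-LPS, and 3 of 4 tested fell with LPS in wild type. In CPEB1-KO their sum was 52.0, 11.1 and 7.41 TPM in replicates 1 to 3, and replicate 1 also had the highest Ccr2 of all libraries, 6.11 TPM. The B cell sum in CPEB1-KO-LPS was 7.29 to 10.3 TPM, which overlapped with CPEB1-KO. With LPS in the knockout edgeR called 0 of the 4 at an FDR under 0.05. At an unadjusted p under 0.05, 3 were lower (3136 of 15295 genes in either direction). All 4 erythroid markers tested fell with LPS in wild type, with 0 called in the knockout by edgeR at an FDR under 0.05 or an unadjusted p under 0.05. Of the 8 T and NK cell markers tested, 1 rose and 2 fell in wild type and 1 rose in the knockout, and their sums were 22.2 to 45.0 TPM in WT, 39.4 to 53.9 in WT-LPS, 15.6 to 39.6 in CPEB1-KO and 43.8 to 58.7 in CPEB1-KO-LPS. Of the 4 dendritic cell markers tested, 1 rose and 1 fell in wild type and 1 rose in the knockout. For these counts, the shares of all genes called were 12.4% higher and 14.9% lower in wild type, and 4.1% and 2.12% in the knockout. The part of blood cell content in the member values was not tested.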

How the data were processed

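Gene values of 12 libraries were used as deposited: expected counts, which the authors estimated per gene with RSEM and did not scale between libraries, and TPM, which the authors computed within each library. Per the submitters' processing notes, cutadapt, RSEM and the mm10 build were used, and versions, aligner and strand setting were not given in the sources used here. Expected counts were rounded and tested with edgeR 4.0.16 in R 4.3.3 (filterByExpr by group, TMM scaling, quasi-likelihood F test, 1 mean per group over all 12 libraries, 8 residual degrees of freedom, two-sided). FDR is the Benjamini-Hochberg adjusted p over 15295 genes, with a threshold of 0.05. An additive model of genotype and LPS gave averages. SE is the absolute log2 fold change divided by the square root of F. Each library came from 1 animal. Depth limits low genes: Ccr2 in CPEB1-KO-LPS and F10 without LPS rest on few counts, and intervals from counts cover counting error only. Deviations from the group means correlated above 0.1 in all 3 same-number pairs of WT and WT-LPS, and not in all 3 for any other pair of groups.

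The members and the 22 gene lists (164 entries, of which 5 have no row) were chosen with earlier results of these data known. All members were named, with up to 4 genes of a list by smallest p, and the 3 genes nearest to a member; Ccl2, Ccl7, Ccl12, Ly6c1, Chil4, Vim and F13a1 were given where they bear on one. Lyz2, S100a4, Itga4 and Emilin2 were named after their values were seen. Emr4 is the row of Adgre4. Coding sequences and strands came from GENCODE M21, and positions from RefSeq (GRCm38.p6). Promoters also came from RefSeq, which held them for 5 of 6 members. Alternatives were RLE scaling, DESeq2 1.42.0, no filter, limma 3.58.1 on log2(TPM + 1) and log2(TPM + 0.1), a TPM minimum of 1 in 3 libraries, the replicate block, fits of 2 groups alone, and 12 fits without 1 library.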

Additional observations from a re-analysis of the deposited data

How the results depend on the processing

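The 4 calls in wild type were made in every alternative and with each library left out. In the knockout the 2 calls became 1 (F10) in limma on log2(TPM + 1), also with the TPM minimum, and 0 with the 2 groups alone. With 1 library left out the count ran from 0 (without CPEB1-KO replicate 1) to 2. With the replicate number as a block it was 2 members, Ccr2 and Chil3, since F10 was lost (FDR = 0.0541). The 3 same-number pairs of WT and WT-LPS all correlated above 0.1 (0.378, 0.149 and 0.176). WT replicate 2 with WT-LPS replicate 3 did so too (0.141), and different-number pairs over all groups reached 0.377. Whether the numbers pair libraries can therefore not be told from these values. The block kept the 4 calls in wild type. In no other pair of groups did all 3 same-number pairs correlate above 0.1 (5 of 18 over all groups, range -0.344 to 0.378). Of the 12 libraries, 3 correlated best with their own number. No member was called between genotypes or for the difference in response in any fit. The causes were not tested.

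Some members that were not called changed sign, all as log2 fold changes. With log2(TPM + 0.1), Ccr2 in wild-type LPS was 0.033 and Fn1 in knockout LPS was -0.0028. Untreated Ly6c2 between genotypes was 0.068 with log2(TPM + 1), with or without the TPM minimum, 0.050 with log2(TPM + 0.1) and 0.40 with Ly6c1 added. With 1 library left out, the ranges in wild-type LPS were -0.78 to 0.12 for Ccr2 and -0.10 to 0.69 for Fn1, and in knockout LPS -0.17 to 0.35 for Fn1. Between untreated genotypes they were -0.49 to 0.74 for Ccr2, -0.51 to 0.38 for Ly6c2, -0.26 to 0.94 for Chil3, -0.83 to 0.14 for Plac8 and -4.55 to 1.48 for F10. For the difference in response they were -0.60 to 0.20 for Fn1 and -3.24 to 2.84 for F10, and for the average genotype difference -0.51 to 0.018 for Chil3.

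Counts of all genes called, the background of the members, moved more. They were 4185 (2592 to 5074) for LPS in wild type, 952 (355 to 1655) in the knockout, 5 (2 to 1292, the highest without WT replicate 1) between untreated genotypes, 1 (1 to 90) after LPS, 1 (0 to 441) for the difference in response and 17 (5 to 108) for the genotype average. In limma on log2(TPM + 1) the median of all genes in wild-type LPS was 0.28, and 75.7% of calls were higher, against 45.4% in edgeR.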
